A study of Homo sapiens with 12 samples.

Results

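The genes described here are SYNC, which encodes syncoilin, and 9 other intermediate filament genes, VIM, NES, LMNA, LMNB1, LMNB2, KRT7, KRT8, KRT18 and KRT19. They were taken by the gene symbol of the array table, in which SYNC carries its older symbol SYNC1. The 10 genes had 11 probes among 46713 on the array, KRT18 having 2. Of the 10, 8 had a probe that passed the detection filter and were among the 13528 genes tested. SYNC was chosen by its normalized intensity in miR-101 against control precursor cells, where its increase was, by a narrow margin, the largest of all genes. That comparison is therefore given as a description for SYNC and its companions, without a test. Other tests of these genes against the control precursor arrays share values with it, so nothing is read from their p-values or counts.

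UM-UC-3, a human bladder cancer cell line in long use, supplied all the RNA. Transfection was at 50 nM, with RNA extracted 72 h later. The 4 groups, of 3 arrays each, received a precursor of miR-101, a control microRNA precursor, an siRNA against EZH2 or a control siRNA. All groups share this line and a transfection, and no untransfected cells were analysed here. The labels do not say whether the 3 arrays of a group came from separate cultures, so p-values measure only how these arrays spread, which may be technical. The series title names the question, whether miR-101 lowers EZH2, the enzyme of a Polycomb complex that methylates histone H3.

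Intermediate filaments are rope-like polymers that give cells mechanical strength. Keratins pair as an acidic and a basic partner and fill the cytoplasm of epithelial cells, vimentin does so in mesenchymal cells and in many cultured cancer cells, and lamins form a meshwork under the inner nuclear membrane. Syncoilin is best known from skeletal muscle, where it binds desmin and alpha-dystrobrevin and links filaments to the dystrophin complex. A microRNA pairs through its seed, near its 5′ end, with sites in messenger RNAs and lowers their level or translation.

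The mature sequence below is shown because it is the agent of the comparison on which SYNC was chosen. It is the arm usually meant by miR-101, from RefSeq on GRCh38.p14 at chr9:4850345-4850365, plus strand, in MIR101-2, and its 21 bases are printed 5′ to 3′ with the seed, bases 2 to 8, in capitals. The labels do not give the sequence of the precursor that was transfected.
hsa-miR-101-3p: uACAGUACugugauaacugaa

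On GRCh38.p14, SYNC lies on chromosome 1 from 32679906 to 32703593. LMNA (156082573 to 156140081) and NES (156668763 to 156677407) lie on the other arm of the same chromosome. The keratin genes KRT7 (52233243 to 52255853), KRT8 (52897191 to 52949860) and KRT18 (52948855 to 52952906) lie on chromosome 12, where the annotated spans of KRT8 and KRT18 overlap by 1006 bases. VIM is on chromosome 10 (17228241 to 17237593), LMNB1 on chromosome 5 (126776623 to 126837020), LMNB2 on chromosome 19 (2428166 to 2456959) and KRT19 on chromosome 17 (41523617 to 41528308).

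EZH2, the targeted gene, was checked first. Its normalized log2 intensity was 7.68, 7.81 and 7.86 on the miR-101 arrays, against 8.88, 8.79 and 8.36 on the control precursor arrays. It was 7.36, 7.51 and 7.35 with EZH2 siRNA, against 8.57, 8.53 and 8.76 with control siRNA. Neither comparison overlapped. EZH2 fell by 0.90 with miR-101 (adjusted p = 0.000300, limma), and fell by 1.22 with EZH2 siRNA (adjusted p = 0.000432, limma).

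Per array, 15453 to 16377 probes were detected and the mean signal was 304 to 497 intensity units, the lowest on the array miR-101 replicate 2. Arrays of the same group correlated at 0.992 to 0.999. The miR-101 and control precursor arrays lay on 1 chip and both siRNA groups on another, so the control siRNA and control precursor groups cannot be told apart from the chips. Within each chip the control arrays held positions A to C and the treated arrays D to F, and the effect of position cannot be told apart from that of treatment either. Of 14 urothelial markers, 5 had a probe that passed the filter (ELF3, FOXA1, PPARG, UPK1B and UPK3B), whereas KRT5, KRT13, KRT20, GATA3, TP63, GRHL3, UPK2 and UPK3A were undetected on all 12 arrays. The summed raw signal of the 5 was 954 to 1439.6 on the miR-101 arrays, against 1730.5 to 1897 on the control precursor arrays, and ELF3 and PPARG fell with miR-101, by 0.96 (adjusted p = 1.09e-05, limma) and 0.61 (adjusted p = 0.000178, limma). On the control siRNA arrays, on the other chip, the sum was 1377.2 to 1676.5, which overlapped that of the miR-101 arrays. Mean log2 values with miR-101, control precursor and control siRNA were 6.94, 7.91 and 7.51 for ELF3. For PPARG they were 8.98, 9.59 and 9.27. The size of both falls thus depended on which control, and so which chip, was used. The part of these markers in the results below was not tested. The number passing was 1 of 6 for leukocyte, 2 of 5 for endothelial and 1 of 9 on the array for muscle markers. The leukocyte gene PTPRC and the endothelial genes PECAM1 and TEK had group means of 6.82 to 6.86, near the normalized floor of 6.69. None of them was detected on all 12 arrays. In such bulk samples, fewer cells of a type and less RNA per cell cannot be told apart.

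SYNC was far higher in miR-101 cells than in any other group. Its raw signal was 2299.1, 1344.8 and 1530.6 intensity units on the miR-101 arrays, against 176.5, 182.9 and 155.4 on the control precursor arrays. On the EZH2 siRNA arrays it was 274.9, 259.3 and 183.7, against 242.6, 282.7 and 257.8 on the control siRNA arrays. The miR-101 arrays stood apart from all others, and the raw signals of the siRNA groups overlapped each other.

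After normalization SYNC had log2 intensities of 10.87, 10.95 and 10.74 with miR-101, against 7.05, 7.11 and 7.07 with control precursor. The means were 10.85 ± 0.105 and 7.08 ± 0.0316 (SD, n = 3 each), a log2 difference of 3.77 with a standard error of 0.0485, or 13.7-fold. This was rank 1 of 13528 genes by size of increase, which is how SYNC was chosen. The margin was far below the standard error, with SYNC at 3.7745 and SERPINB2 next at 3.7741. SYNC was detected on all 12 arrays, so its low level in the other groups was a measured one. That level was dim, so the size of the difference depended on how background was taken off. It was 3.59 in the authors' normalized values and 4.26 with the background level estimated from the median and spread of undetected probes. Against the control siRNA arrays, on the other chip, the miR-101 arrays were higher by 3.40, which was rank 3.

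EZH2 siRNA did not give a SYNC increase. SYNC was at 7.34, 7.34 and 7.26 with EZH2 siRNA, against 7.44, 7.43 and 7.49 with control siRNA. The 3 EZH2 siRNA arrays all lay below the 3 control siRNA arrays, but the log2 difference of -0.14 (95% interval -0.25 to -0.03) had an adjusted p of 0.109 in limma and did not pass the threshold of 0.05. With weights for the quality of each array it was -0.12 and passed (adjusted p = 0.0333, limma). The response to miR-101 exceeded that to EZH2 siRNA by 3.91 on the log2 scale, given as a description because it contains the contrast that chose the gene.

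The control groups themselves differed in SYNC. The control siRNA mean was 7.45 ± 0.0330 and the control precursor mean 7.08 ± 0.0316 (SD, n = 3 each), without overlap and with a difference of 0.37. With the background level estimated from the median and spread of undetected probes, the same difference was 0.96, and in the authors' normalized values it was 0.65. Set against the control precursor arrays of the other chip, the EZH2 siRNA arrays were higher by 0.24. The sign of a SYNC change with EZH2 siRNA thus depended on which control, and so which chip, was used. The order of group means, from low to high, was control precursor, EZH2 siRNA, control siRNA and miR-101, and no neighbouring groups in it overlapped.

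**Figure D1:**
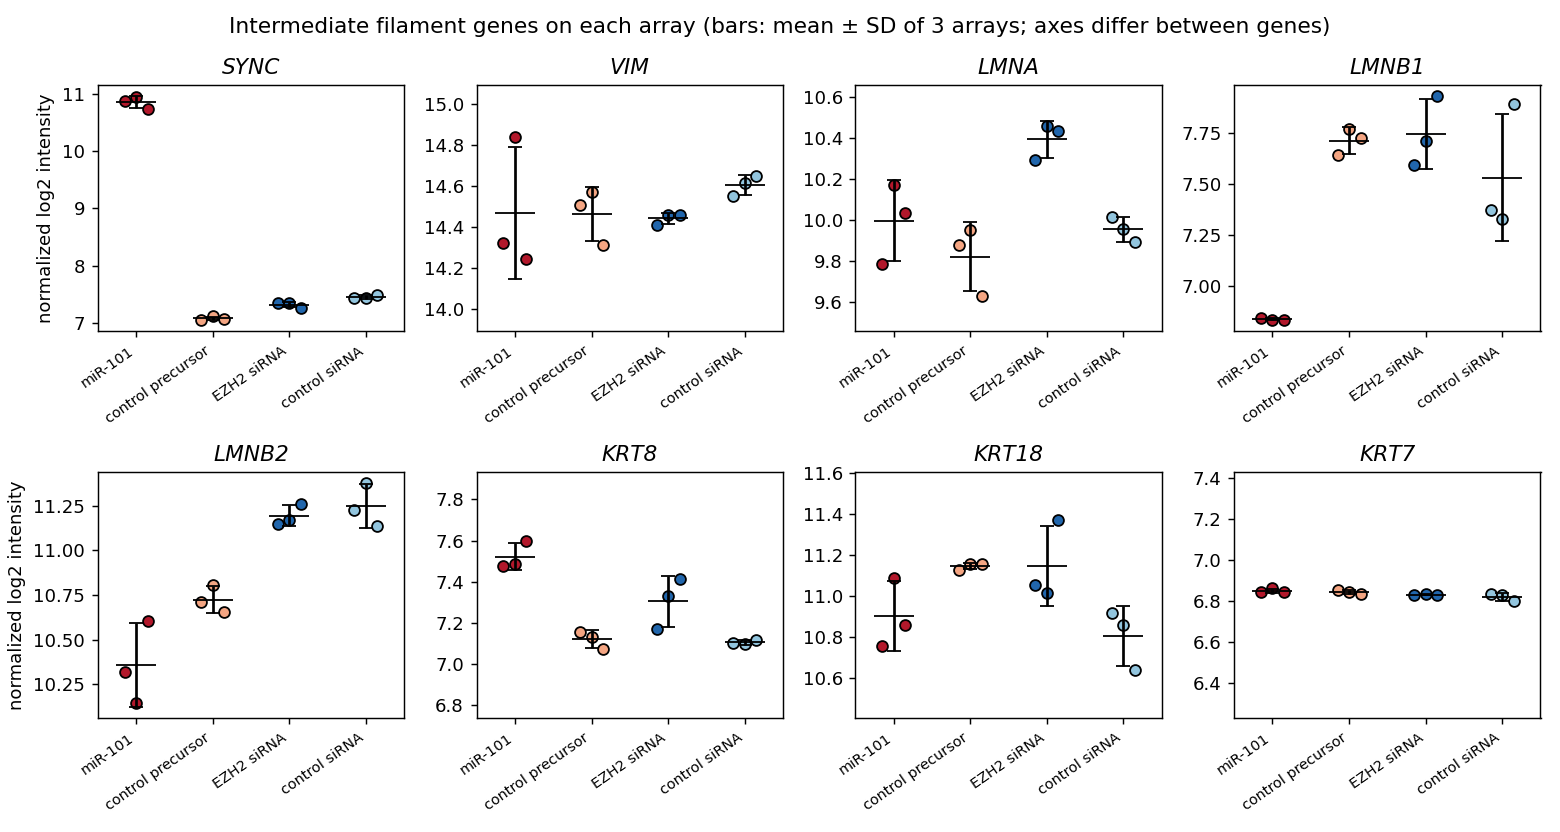
Normalized log2 intensity (vertical axes, which differ between genes) of the 8 tested genes on each of the 12 arrays; points are arrays and bars are the mean ± SD of 3 arrays. SYNC on the miR-101 arrays lies at 10.74 to 10.95, above every other array, while LMNB1 on the same arrays lies at 6.83 to 6.84, below every other array.

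Of the genes of syncoilin's binding partners, 3 were read. DES, which encodes the muscle filament protein desmin, was undetected on all 12 arrays, with raw signals of 68.4 to 104.1. DTNB, encoding beta-dystrobrevin, was detected on 12 arrays and DTNA, encoding alpha-dystrobrevin, on 5. TNNT1, the slow skeletal troponin T gene, was the muscle marker that passed the filter. It rose by 0.68 with miR-101 (adjusted p = 0.000177, limma) on the log2 scale. Against the control siRNA arrays, however, the miR-101 arrays differed by -0.01 (adjusted p = 0.964, limma). This rise thus rested on which control, and so which chip, was used. The control siRNA arrays themselves were higher than the control precursor arrays by 0.69 in TNNT1 (adjusted p = 0.000414, limma). The other muscle markers on the array did not pass, MYOG, MYH1, MYH2 and CNN1 being undetected everywhere. The raw TNNT1 signal was 2289.3 to 4462.4 on the miR-101 arrays, against 2685.4 to 2847.4 on the control precursor arrays, which overlapped before normalization. The part of this marker in the SYNC level was not tested.

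The lamin genes differed from one another. LMNB1, a B-type lamin of the nuclear envelope, had raw signals of 105.1, 92.9 and 88.2 on the miR-101 arrays, against 335.9, 361.3 and 310.5 on the control precursor arrays. The normalized log2 values were 6.84, 6.83 and 6.83, against 7.64, 7.77 and 7.73. All 3 miR-101 arrays lay below the control arrays, and LMNB1 was detected on 1 of those 3.

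The log2 difference for LMNB1 was -0.88 with a standard error of 0.138, which is 54.5% of the control level. Because the miR-101 signal lay close to background, the size depended on how background was taken off: the difference was -1.71 in the authors' normalized values and -2.95, or 13% of the control level, with the background from the median and spread of undetected probes. The sign was the same in all 3. Against the control siRNA arrays the miR-101 arrays were lower by 0.69 in LMNB1.

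EZH2 siRNA left LMNB1 near its control. The values were 7.59, 7.71 and 7.93 with EZH2 siRNA, against 7.37, 7.33 and 7.89 with control siRNA, and the groups overlapped. The difference of 0.21 did not pass (adjusted p = 0.402, limma). Control siRNA replicate 3 lay well above the other two arrays of its group. Without it the difference was 0.39 and passed (adjusted p = 0.0311, limma), and the control siRNA arrays then differed from the control precursor arrays by -0.36 (adjusted p = 0.0175, limma), against -0.18 with it (adjusted p = 0.377).

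LMNB2, the other B-type lamin gene, had log2 values of 10.32, 10.14 and 10.61 with miR-101, against 10.71, 10.81 and 10.65 with control precursor. The groups did not overlap, though the highest miR-101 array came close to the lowest control array. The log2 difference was -0.37 with a standard error of 0.107, or 77.5% of the control level. With the siRNAs, the values were 11.15, 11.17 and 11.26 for EZH2 siRNA, against 11.23, 11.38 and 11.13 for control siRNA, overlapping and with a difference of -0.05 (adjusted p = 0.843, limma). LMNB2 rose in the control siRNA group relative to the control precursor group by 0.52 (adjusted p = 0.00570, limma), more than the size of its difference with miR-101.

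LMNA encodes lamins A and C by alternative splicing. LMNA was read from 1 probe, so whether a change holds for the transcripts of both lamins is not known. With miR-101 its values were 9.79, 10.17 and 10.03, against 9.88, 9.95 and 9.63 with control precursor. These overlapped, and the difference of 0.18 had a standard error of 0.106. With weights for array quality it was -0.01.

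With EZH2 siRNA, LMNA had values of 10.29, 10.45 and 10.44, against 10.01, 9.96 and 9.89 with control siRNA, without overlap. LMNA rose by 0.44 with a standard error of 0.106, to 136% of the control level (95% interval 115% to 160%, adjusted p = 0.0298, limma). This call was not stable. The difference was 0.35 with median scaling of the arrays (adjusted p = 0.146), and with no detection filter its adjusted p was 0.0541. It was also lost, at differences of 0.41 to 0.47, without EZH2 siRNA replicate 2 (adjusted p = 0.0877) or 3 (0.0814), and without control siRNA replicate 1 (0.0584), 2 (0.0829) or 3 (0.106), all in limma. Against the control precursor arrays LMNA was higher by 0.57 (adjusted p = 0.00326, limma).

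The keratins gave smaller differences. KRT8 and KRT18 form the partner pair of simple epithelia. KRT8 had log2 values of 7.48, 7.49 and 7.60 with miR-101, against 7.16, 7.13 and 7.07 with control precursor. The groups did not overlap, and the difference was 0.40 with a standard error of 0.0571, or 132% of the control level. KRT8 was dim, so its difference was 0.65 in the authors' normalized values and 0.93 with the background from the median and spread of undetected probes.

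With EZH2 siRNA, KRT8 had values of 7.17, 7.33 and 7.41, against 7.10, 7.09 and 7.11 with control siRNA. These did not overlap, and the difference of 0.20 lay just outside the threshold (adjusted p = 0.0560, limma). KRT8 passed with the background from undetected probes (0.54, adjusted p = 0.0159), in the authors' normalized values (0.36, adjusted p = 0.0168) and without EZH2 siRNA replicate 1 (0.27, adjusted p = 0.0101), all in limma. The control groups differed in KRT8 by -0.02 (adjusted p = 0.873, limma).

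KRT18 has 2 probes. Its brighter probe had log2 values of 10.76, 11.09 and 10.86 with miR-101, against 11.13, 11.16 and 11.16 with control precursor, a difference of -0.24 with a standard error of 0.113. The groups did not overlap, but the dimmer probe differed by -0.02 with overlapping groups, and against the control siRNA arrays the brighter probe turned to 0.10. With EZH2 siRNA the brighter probe had 11.05, 11.02 and 11.37, against 10.92, 10.86 and 10.64 with control siRNA. Both KRT18 probes were higher by 0.34, and neither passed (adjusted p = 0.0924 and 0.195, limma). The brighter probe was lower in control siRNA cells than in control precursor cells by 0.34, with an adjusted p of 0.0498 in limma that rested just inside the threshold and was lost when any 1 of the 6 arrays of these groups was left out (adjusted p = 0.0540 to 0.169).

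KRT7, a keratin of ductal and urothelial cells, was detected on 3 miR-101 and 2 control precursor arrays and on none of the 6 siRNA arrays. Its raw signals of 105.4, 98.8 and 91.0 on the miR-101 arrays, against 116.2, 100.4 and 95.4 on the control precursor arrays, lay at the edge of background. No fold is given for KRT7 with EZH2 siRNA. KRT19, the smallest keratin, was undetected on all 12 arrays, with raw signals of 65.4 to 82.7.

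VIM was detected on all 12 arrays. It had log2 values of 14.32, 14.84 and 14.25 with miR-101, against 14.51, 14.57 and 14.31 with control precursor. These overlapped, with a difference of 0.00 and a standard error of 0.133, and the 95% interval ran from 81.5% to 124% of the control level. Without miR-101 replicate 2, the highest array, the difference was -0.18.

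With EZH2 siRNA, VIM had 14.41, 14.46 and 14.46, against 14.55, 14.61 and 14.65 with control siRNA. The groups did not overlap, and the difference of -0.16 did not pass (adjusted p = 0.538, limma). In a fit of only those 6 arrays, which estimates the spread from them alone, it passed (adjusted p = 0.0411, limma). NES, which encodes nestin, a filament protein of progenitor cells, was undetected on all 12 arrays, with raw signals of 63.6 to 88.3.

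**Figure D2:**
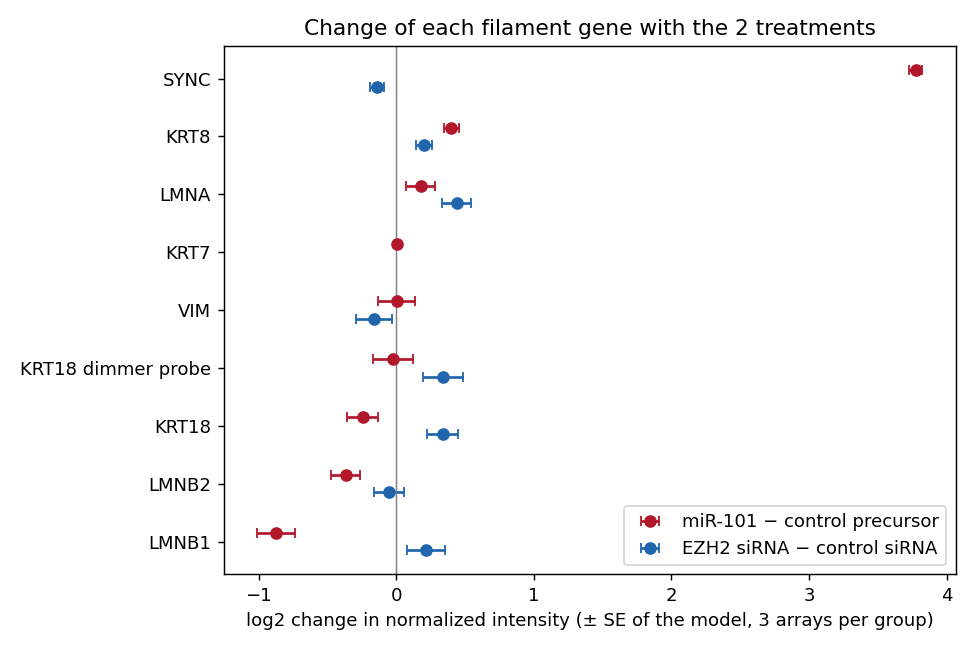
Log2 change in normalized intensity (horizontal axis) for each probe of the tested genes, with the standard error of the model as bars; red is miR-101 minus control precursor and blue EZH2 siRNA minus control siRNA, 3 arrays per group. SYNC stands at 3.77 with miR-101 and -0.14 with EZH2 siRNA, and all other changes lie between -0.88 and 0.44, with KRT7 not drawn for EZH2 siRNA because its probe was undetected there.

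Counted together, 4 of the 8 tested genes passed the threshold with miR-101, SYNC and KRT8 being higher and LMNB1 and LMNB2 lower, where 44.9% of all genes tested passed (23.6% higher and 21.3% lower). Nothing is read from that count, since the comparison chose the set. With EZH2 siRNA 1 of 8 passed, LMNA, where 10.5% of all genes tested passed (5.85% higher and 4.64% lower). Between the control groups SYNC is not counted, since its control precursor values entered its choice. Of the other 7 genes 2 passed, LMNB2 higher and KRT18 lower in the control siRNA group, where 28.3% of all genes did (14.1% higher and 14.2% lower). Their control precursor values too belong to the comparison that chose the set, so nothing is read from this count either. Groups without overlap were found for 5 of the 8 with miR-101, where 53.6% of all genes had such groups, and for 5 of the 8 with EZH2 siRNA, where 32.6% did.

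Across the 4 groups the genes fell into different orders. LMNB1 was lowest with miR-101, and its other 3 groups overlapped their neighbours. LMNB2 was lowest with miR-101, then control precursor, with the siRNA groups above them and overlapping each other. KRT8 was highest with miR-101 and next with EZH2 siRNA, both apart from the overlapping control groups. LMNA was highest with EZH2 siRNA and its other 3 groups overlapped. No neighbouring groups of VIM were apart.

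**Figure D3:**
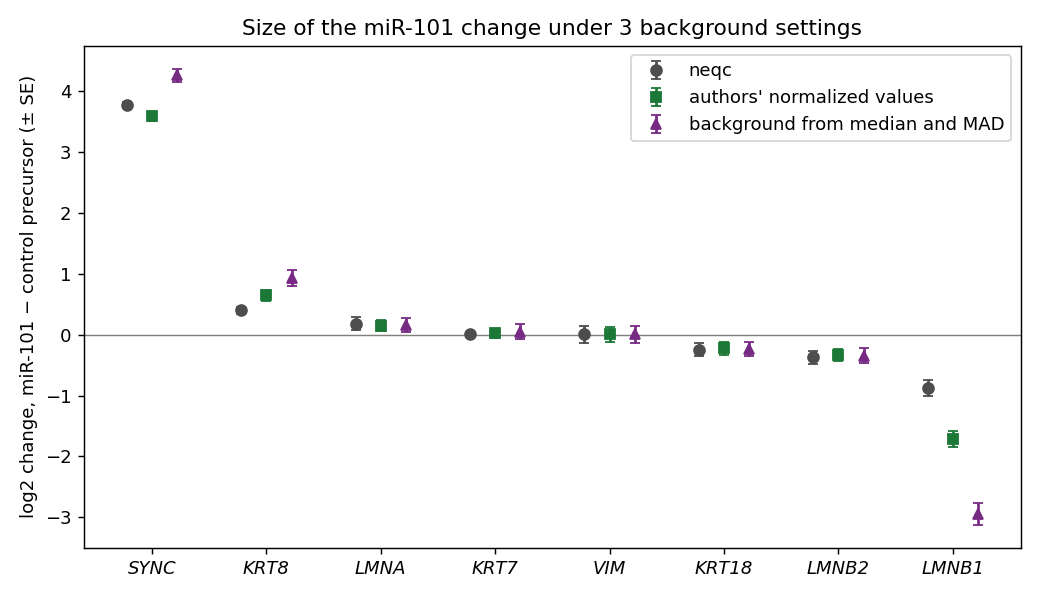
Log2 difference between miR-101 and control precursor (vertical axis, ± SE) of the 8 tested genes from 3 ways of treating background. The bright genes LMNA, VIM, KRT18 and LMNB2 gave nearly the same value in all 3, whereas LMNB1 ranged from -0.88 to -2.95, KRT8 from 0.40 to 0.93 and SYNC from 3.59 to 4.26.

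Other genes of the filament system were read from 4 lists of 135 genes, of which 76 were tested. With miR-101, 15 rose and 15 fell, or 30 of 76, beside 44.9% of all genes tested, and the median change was -0.02, against 0.00 for all genes. With EZH2 siRNA 6 rose and 2 fell, beside 10.5% of all genes, and the median was 0.01, against 0.00. The responses to the 2 treatments differed for 28 of the 76 genes, 13 with the higher response to miR-101 and 15 with the lower, beside 33.8% of all genes (17.4% higher and 16.4% lower).

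Most other cytoplasmic filament genes gave no detectable signal. Of 59 listed, 36 were undetected on all 12 arrays, among them KRT5, KRT14 and KRT20 of the urothelium and PRPH, INA and NEFH of neurons. With miR-101, 2 of the 17 tested rose and 1 fell, beside 23.6% and 21.3% of all genes, and with EZH2 siRNA 1 rose and none fell, beside 5.85% and 4.64%. BFSP1, which encodes the lens filament protein filensin, had log2 values of 7.93, 8.28 and 8.01 with miR-101, against 7.12, 7.07 and 6.95 with control precursor. It rose by 1.03 (adjusted p = 9.96e-06, limma), or by 1.93 with the background from undetected probes. KRT222 is the other gene in that count of rises, at least 1.04-fold higher (adjusted p = 0.0299, limma). Its probe was detected on 3 miR-101, 0 control precursor, 1 EZH2 siRNA and 1 control siRNA arrays, so it passed the detection filter mainly through the group where it is high, and nothing is read from its call. The call was also lost without miR-101 replicate 1 (0.0636) or 2 (0.0945) and without control precursor replicate 1 (0.0665) or 2 (0.0930).

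KRT80, a keratin of many epithelia, moved in opposite directions with the 2 treatments. With miR-101 it had 7.64, 7.43 and 7.69, against 8.09, 8.09 and 7.81 with control precursor. With EZH2 siRNA it had 8.58, 8.60 and 8.46, against 7.44, 7.35 and 7.54 with control siRNA. Neither comparison overlapped, and KRT80 fell by 0.41 with miR-101 (adjusted p = 0.00568) and rose by 1.10 with EZH2 siRNA (adjusted p = 0.000174). The responses differed by -1.51 (adjusted p = 3.08e-05, all in limma). The rise with EZH2 siRNA was 0.55 against the control precursor arrays. The fall with miR-101 turned to 0.14 when the miR-101 arrays were set against the control siRNA arrays instead. Its direction thus depended on which control, and so which chip, was used. With median scaling the difference with miR-101 was -0.34 and did not pass (adjusted p = 0.118, limma).

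Among linkers and desmosome genes 3 of 12 tested rose with miR-101 and 2 fell, beside 23.6% and 21.3% of all genes, and with EZH2 siRNA none rose and 1 fell, beside 5.85% and 4.64%. MACF1 encodes a spectraplakin that crosslinks cytoskeletal fibres. It had 10.39, 10.37 and 10.30 with miR-101, against 9.11, 9.14 and 8.82 with control precursor, and rose by 1.33 (adjusted p = 1.39e-05, limma). Against the control siRNA arrays the same miR-101 arrays differed by only -0.01 (adjusted p = 0.956, limma). This rise too rested on which control, and so which chip, was used. PKP4, a plakophilin of cell junctions, had 7.46, 7.52 and 7.51, against 8.29, 8.39 and 8.14. PKP4 fell by 0.78 (adjusted p = 1.49e-05, limma) and was lower by 0.68 against the other control as well.

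PERP, a desmosome-associated membrane protein gene, again moved both ways. With miR-101 it had 11.99, 12.08 and 11.80, against 11.60, 11.59 and 11.49 with control precursor. With EZH2 siRNA it had 10.31, 10.26 and 10.24, against 11.26, 11.23 and 11.40 with control siRNA. PERP rose by 0.40 with miR-101 (adjusted p = 0.00151) and fell by 1.03 with EZH2 siRNA (adjusted p = 6.32e-05), without overlap in either comparison. The responses differed by 1.42 (adjusted p = 8.99e-06, all in limma), and against the other control the signs were the same, at 0.66 and -1.29. TCHP, the gene of the keratin-binding protein trichoplein, fell by 0.47 with miR-101 (adjusted p = 0.00209, limma), and fell by 0.71 against the other control. With median scaling neither call with miR-101 passed, at 0.28 for PERP (adjusted p = 0.173) and -0.40 for TCHP (adjusted p = 0.0985).

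Of 25 lamina partner and lamin processing genes tested, 6 rose and 4 fell with miR-101, beside 23.6% and 21.3% of all genes, and 3 rose and 1 fell with EZH2 siRNA, beside 5.85% and 4.64%. LBR, the lamin B receptor, had 8.67 to 8.89 with miR-101, against 10.82 to 11.08 with control precursor. It fell by 2.21 (adjusted p = 4.36e-06, limma), and fell by 2.23 against the control siRNA arrays. LMNB1 and LMNB2, whose products it binds, were lower on the same arrays, by the descriptive values above.

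TOR1AIP1, encoding the lamina-associated membrane protein LAP1, had 10.42, 10.46 and 10.21 with miR-101, against 9.11, 9.04 and 8.94. It rose by 1.33 (adjusted p = 6.31e-07, limma), and by 0.47 against the other control. RCE1, which clips the tail of prenylated proteins such as the lamins, rose by 1.10 (adjusted p = 0.000162), and was higher by 0.35 against the other control, which did not pass (adjusted p = 0.0731, both in limma). NARF, which binds prenylated prelamin A, rose with both treatments, by 1.57 with miR-101 (adjusted p = 1.70e-05) and by 0.62 with EZH2 siRNA (adjusted p = 0.0221), and the responses differed by 0.95 (adjusted p = 0.00509, all in limma). Against the other control of each, NARF differed by 0.51 with miR-101 (adjusted p = 0.0147) and by 1.68 with EZH2 siRNA (adjusted p = 3.20e-05, both in limma). Which response was the larger thus rested on which control, and so which chip, was used. Its rise with EZH2 siRNA was lost without EZH2 siRNA replicate 3 (0.48, adjusted p = 0.0524) and without control siRNA replicate 2 (0.61, 0.0725) or 3 (0.51, 0.0787).

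The other calls with EZH2 siRNA in the lamina list were smaller. PRR14, which tethers heterochromatin to the lamina, had 10.24, 10.47 and 10.56 with EZH2 siRNA, against 10.01, 9.98 and 9.79 with control siRNA. It rose by 0.50 (adjusted p = 0.00527, limma), was higher by 0.18 against the other control, which did not pass (adjusted p = 0.147), and did not pass with median scaling (0.41, adjusted p = 0.173). With miR-101 PRR14 fell by 0.49 (adjusted p = 0.000979), and the responses differed by -0.98 (adjusted p = 0.000193, both in limma). SYNE3, a nesprin of the nuclear envelope, rose by 0.13 with EZH2 siRNA (adjusted p = 0.0159, limma), or by 0.81 with the background from undetected probes. Its call was lost without EZH2 siRNA replicate 1 (0.0554) and without control siRNA replicate 1 (0.0572) or 2 (0.0576), and its other probe differed by 0.04. NUP153, a nuclear pore protein gene, fell by 0.49 (adjusted p = 0.0358, limma). That call was lost when any 1 EZH2 siRNA array was left out and without control siRNA replicate 2 or 3 (adjusted p = 0.0566 to 0.130), and the difference was -0.06 against the other control.

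Of 22 kinases, phosphatases and turnover genes tested, 4 rose and 8 fell with miR-101, beside 23.6% and 21.3% of all genes, and 2 rose and none fell with EZH2 siRNA, beside 5.85% and 4.64%. AURKB, a mitotic kinase that phosphorylates vimentin, had 9.90, 10.17 and 10.18 with miR-101, against 11.69, 11.71 and 11.77 with control precursor, and fell by 1.64 (adjusted p = 3.33e-06, limma). CDK1, which phosphorylates lamins as the envelope breaks down in mitosis, had 9.89, 10.15 and 9.62, against 11.45, 11.45 and 11.34. It fell by 1.53 (adjusted p = 1.07e-05, limma) and its other probe differed by -1.85. Both mitotic kinases were lower on every miR-101 array than on any control precursor array.

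PRKCA, the gene of protein kinase C alpha, had 11.10, 11.10 and 11.13 with miR-101, against 10.24, 10.32 and 10.01 with control precursor, and rose by 0.92 (adjusted p = 1.11e-05, limma). With EZH2 siRNA, PRKCE, the gene of protein kinase C epsilon, had 7.76, 7.81 and 7.91, against 7.42, 7.31 and 7.38 with control siRNA. PRKCE rose by 0.45 (adjusted p = 0.000212, limma), or by 0.69 with the background from undetected probes and by 0.19 against the other control. With miR-101 PRKCE fell by 0.43 (adjusted p = 2.01e-05), and the responses differed by -0.89 (adjusted p = 4.98e-06, both in limma). PLK1, a mitotic kinase gene, rose by 0.14 with EZH2 siRNA (adjusted p = 0.0213, limma), or by 0.46 against the other control. The call at 0.14 was lost when any 1 EZH2 siRNA array was left out and without control siRNA replicate 2 or 3 (adjusted p = 0.0537 to 0.0842). PLK1 fell by 0.15 with miR-101 (adjusted p = 0.00421), and the responses differed by -0.29 (adjusted p = 0.000988, both in limma). With EZH2 siRNA and median scaling, NARF (adjusted p = 0.0883), SYNE3 (0.111), NUP153 (0.132) and PLK1 (0.421) did not pass, and in a fit of only the 6 siRNA arrays NARF (0.0940), SYNE3 (0.0646), NUP153 (0.0693) and PLK1 (0.0601) did not pass either, all in limma.

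**Figure D4:**
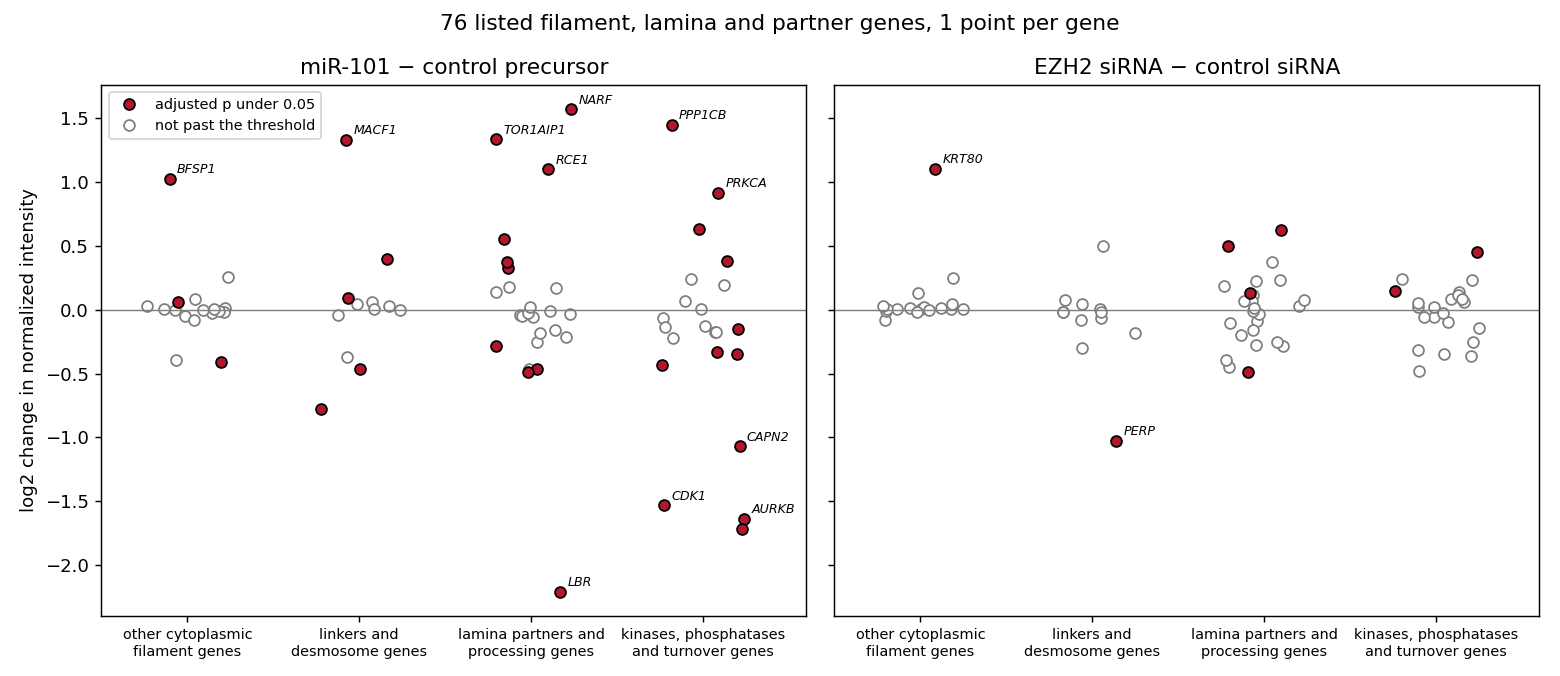
Log2 change in normalized intensity (vertical axis) of the 76 tested filament, lamina and partner genes, 1 point per gene, by list, for miR-101 minus control precursor (left) and EZH2 siRNA minus control siRNA (right). Filled points passed an adjusted p of 0.05, 30 on the left and 8 on the right, and most of the larger changes are labelled.

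The genes whose pattern over the 12 arrays was most like that of SYNC were BRF2 (Pearson r 0.997), GABARAPL1 (0.994), SLFN5 (0.994), NPAS3 (0.993) and NFIL3 (0.993), among 11681 genes compared. Tested genes with provisional names, starting with LOC, Hs., FLJ, KIAA or MGC, were left out of this comparison and of its counts. The most opposite were JPT1 (-0.996), PHF10 (-0.995) and GINS2 (-0.994). These values describe the arrays and share their libraries and chips, and they largely restate the gap between the miR-101 arrays and the rest: 628 genes had r above 0.9 with SYNC and 518 below -0.9. Over the 9 arrays without miR-101, r was 0.762 for BRF2, 0.496 for GABARAPL1, 0.814 for SLFN5, 0.176 for NPAS3 and -0.00831 for NFIL3, and -0.855 for JPT1, -0.785 for PHF10 and -0.457 for GINS2. Within the filament genes, r with SYNC over 12 arrays was -0.911 for LMNB1, 0.828 for KRT8, -0.752 for LMNB2 and -0.0510 for VIM.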

How the data were processed

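Single-colour Illumina bead arrays measured RNA of 12 samples in 4 groups of 3. The authors deposited a raw bead intensity for each probe and array and a detection p-value beside it, per the file headers, made with BeadStudio, per the submitters' processing notes. A further table of deposited intensity values has a median of 89.1 on every array, and its sorted values equal those of quantile-normalized raw signals to within 3.33e-06. It was used as an alternative, named above as the authors' normalized values.

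The neqc function of limma 3.58.1, run in R 4.3.3, corrected the background, for which it used the detection p-values, added an offset of 16, applied quantile normalization and took log2. Each gene was read from its brightest named probe, among probes with a detection p-value under 0.05 on 3 or more arrays. One linear model of all 12 arrays, with a mean per group, was fitted in limma (lmFit, then eBayes), and two-sided p-values were adjusted by Benjamini-Hochberg over 13528 genes, with a threshold of 0.05. Names came from RefSeq (GRCh38.p14) for 18886 probes by accession, 1717 by current and 852 by older symbol, and 7100 kept the symbol of the file.

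The background spread that neqc inferred from the detection p-values was 103 to 192 intensity units per array, whereas undetected probes had a median absolute deviation of 8.15 to 10.4 around their median, and 84 to 118 undetected probes per array had signals over 200. The normalized floor lies at a log2 of 6.69, and changes of dim genes are understated. An alternative chosen after seeing the data took the background from that median and deviation, with a floor of 4.21. The other alternatives changed the normalization, offset, detection filter, probe choice, arrays in the fit, array weights, variance model and control group, or left out 1 array.

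The members and the gene lists were chosen with earlier results of these data known. Genes named beyond the members were EZH2, up to 4 genes per filament list with the smallest adjusted p past the threshold in each treatment comparison, and the 5 genes most like and 3 most opposite to SYNC. The result of 1 gene that this rule took is not reported here. Other genes are named as markers, partners or list members. On simulated data for the miR-101 comparison with 13528 genes, the procedure recovered 96% of 100 genes changed by 1 and 70% of 100 changed by 0.5 on the log2 scale, with 8 false calls. Those changes were added after normalization, with independent normal noise, and to far fewer genes than the 44.9% that passed in the data. The simulation left out the background step, so these shares are not the sensitivity reached in the data. The number of arrays limits the precision.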

Additional observations from a re-analysis of the deposited data

How the results depend on the processing

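SYNC was higher with miR-101 under every setting tried. The difference was 3.77 as reported, 3.59 from quantile-normalized raw signals, 3.66 with median scaling, 3.59 in the authors' normalized values, 3.48 with an offset of 50, 4.26 with the background from the median and spread of undetected probes (chosen after seeing the data), 3.40 against the control siRNA arrays, and 3.73 to 3.83 when 1 array was left out. The count of the 8 filament genes past the threshold with EZH2 siRNA, 1 as reported, was 2 from quantile-normalized raw signals, in the authors' normalized values, in a fit of only the 6 arrays, with array weights, with trend and robust eBayes and with the background from undetected probes, 0 with median scaling and with no detection filter, 4 against the other control group, and 0 to 2 when 1 array was left out. The count of listed genes past the threshold with EZH2 siRNA, 8 as reported, was 3 with median scaling, 17 with array weights, 22 against the other control group, and 4 to 8 when 1 array was left out. Over all genes, 1419 passed with EZH2 siRNA, 387 with median scaling and 2689 with array weights, and the share of these calls that were higher was 55.7%, 30.7% and 57.2%. For control siRNA against control precursor that share was 49.7%, or 75.6% with median scaling, and 3823 and 2215 genes passed. Counts of listed genes stayed within 1.5 times of those reported with miR-101 and for the difference of responses.

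Some values changed sign. KRT8 between the control groups was 0.0330 with median scaling and -0.0401 to 0.00178 when 1 array was left out (the highest without control precursor replicate 1), against -0.02 as reported. With EZH2 siRNA, LMNB2 was -0.109 to 0.0136 when 1 array was left out (the highest without control siRNA replicate 2). Against the other control group, with EZH2 siRNA, SYNC was 0.24 and LMNB2 0.47, and with miR-101, KRT80 was 0.14, MACF1 -0.0106, KRT18 0.10 and TNNT1 -0.01. The cause was not tested.

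Whether replicate numbers pair the samples is not known. Deviations of arrays with the same number correlated at -0.105, 0.180 and 0.245 between miR-101 and control precursor. Between EZH2 siRNA and control siRNA they correlated at -0.125, 0.369 and -0.0424. Arrays with different numbers correlated at -0.259 to 0.209 and at -0.415 to 0.351. These values cannot decide the question, since the deviations of 3 arrays from their own mean are tied to each other. With the replicate block, 4 of the filament genes passed with miR-101 and 1 with EZH2 siRNA, and 29 and 10 listed genes passed with miR-101 and EZH2 siRNA. The difference of responses gave 30. SYNC was 3.77 with the block. The fit of only 6 arrays and the other control group were not run for the difference of responses. Signals near background limit the sizes given for SYNC, LMNB1, KRT8, BFSP1 and SYNE3, and no difference with EZH2 siRNA is given for KRT7, undetected on the siRNA arrays.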
